A study of Mus musculus with 15 samples.

Results

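The core and linker histone genes of mouse zygotes and 2-cell embryos were examined in embryos from wild-type mothers and from mothers whose oocytes lacked Usp16. Usp16 encodes a deubiquitinase that removes the mark H2AK119ub1, a ubiquitin on a lysine near the end of histone H2A. The members were all genes of the expression table whose names start with Hist1h, Hist2h, Hist3h, Hist4h, H2af, H3f3 or H1f, which gave 48 genes of 14392. Of these, 37 carry a Hist name and belong to the replication-dependent group, and 11 carry an H2af, H3f3 or H1f name and are called variants here. By histone type, 13 genes encode H2A or an H2A variant and 35 encode another histone.

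Each of 8 RNA-seq libraries was made from 10 embryos, lysed directly and amplified by Smart-seq2 from oligo-dT primers. WT embryos came from wild-type females, and cKO embryos came from Usp16 fl/fl;Gdf9-Cre females, in which Gdf9 promoter-driven Cre removes the floxed allele in oocytes, starting in primordial follicles. All of these females were superovulated with PMSG and hCG and mated with WT males, so that cKO embryos lack maternal Usp16 and carry an intact paternal allele. There were 4 groups of 2 libraries, as each genotype was sampled as zygotes and as 2-cell embryos. The superovulated females were juvenile by the study's methods. The replicates are labelled as separate samples, and nothing says that they came from separate mothers, so the p-values below measure the spread between these libraries.

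Nucleosomes are built from the core histones H2A, H2B, H3 and H4, and linker histone H1 binds the DNA between them. Replication-dependent histone genes lie in clusters and are transcribed mainly in S phase, and their mRNAs end in a conserved stem-loop bound by SLBP instead of a poly(A) tail. Variant genes such as H2afz, H3f3a and H3f3b are transcribed throughout the cell cycle and give ordinary polyadenylated mRNAs. An oligo-dT library therefore favours the variants, and a low value of a replication-dependent gene measures its polyadenylated or internally primed transcripts only. Oocytes and early embryos store histone mRNA and use germ-line forms such as the oocyte linker histone H1foo and the testis-type histones encoded by Hist1h2aa and Hist1h2ba.

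All 48 genes could be placed on mouse genome build mm9 with GENCODE M1. The 37 replication-dependent genes lay on chromosome 13 (29 genes), chromosome 3 (5 genes), chromosome 11 (2 genes) and chromosome 6 (1 gene). To show the element that separates the classes, the 150 bases after each stop codon were searched on the sense strand for the 16 letters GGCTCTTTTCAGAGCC or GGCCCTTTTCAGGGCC, with up to 2 differences. These were the most common inverted repeats with a stem of 6 and a loop of 4 bases after the stop codons of the replication-dependent genes, found in 18 and 6 of them. Of the 37 replication-dependent genes, 24 held one of them exactly and 10 held one with 1 or 2 differences. Hist1h2bp, Hist2h2bb and Hist2h2be held none in the transcript searched, which was the one with the longest coding sequence. For Hist1h2bp and Hist2h2bb it has 2 exons and 414 and 360 coding bases, against 378 in Hist2h2be. The bases after the stop codon of other transcripts of these genes were not searched. None of the 10 variants with a coding transcript held an exact copy, H2afx held one with 1 or 2 differences, and over 22378 protein-coding genes 45 (0.201%) held an exact copy. The elements of the genes on which the results turn are printed 5′ to 3′, with the stem-loop letters in capitals and 5 flanking bases on each side.
Hist1h2aa, chr13:24026760-24026775, plus strand: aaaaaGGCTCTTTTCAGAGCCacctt
Hist1h2ba, chr13:24025599-24025614, minus strand: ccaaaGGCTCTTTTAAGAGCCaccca
Hist1h1a, chr13:23856261-23856276, plus strand: ccaacGGCTCTTTTCAGAGCCaccaa
Hist1h4c, chr13:23789958-23789973, minus strand: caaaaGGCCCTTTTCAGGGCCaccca
Hist1h4i, chr13:22132835-22132850, minus strand: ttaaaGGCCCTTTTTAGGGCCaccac
Hist1h1c, chr13:23831381-23831396, plus strand: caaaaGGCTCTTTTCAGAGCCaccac
H2afx, chr9:44143323-44143338, plus strand: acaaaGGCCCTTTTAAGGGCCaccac

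The poly(A) signals AATAAA or ATTAAA were searched in the last 40 bases of each annotated transcript. They were found in 11 of 37 replication-dependent genes, in 8 of 10 variants and in 63.4% of all protein-coding genes. Both a stem-loop and a poly(A) signal were held by 9 replication-dependent genes, of which 2 rose (Hist1h1c and Hist1h4i) and 2 fell (Hist1h2bc and Hist1h4a) between the WT stages by limma. H2afx, the DNA-damage variant of H2A, held both as well. For H2afx, Hist1h1c and Hist1h4i the annotated transcript runs 816, 839 and 150 bases past the stem-loop. Among the other replication-dependent genes printed above, Hist1h2aa, Hist1h2ba, Hist1h1a and Hist1h4c had no such signal. The annotated transcripts of Hist1h2aa and Hist1h2ba have 0 and 5 bases after the stop codon and end before the stem-loop. A signal beyond that end could not be found. Several other replication-dependent transcripts also end before their stem-loop, so the count of 11 covers the annotated ends only. A match of letters describes the annotated sequence and was not tested as an mRNA end.

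Because Usp16 acts on H2AK119, the codon at that position was read from each of the 13 H2A genes, counting from the codon after the start codon. A lysine codon stood there in 9 genes, namely the 7 replication-dependent H2A genes, H2afj and H2afx. H2afz, H2afv and H2afy held another codon, and H2afb1 is shorter, with 110 codons after the start. The position was counted without aligning the proteins. The stretches of H2afz, H2afv and H2afy hold lysine codons (AAG or AAA) near it, so these genes may encode a matching lysine at a shifted position. Codons 115 to 123 are printed with the codon counted as 119 in capitals.
Hist1h2aa: ctgctgcccaagAAGaccgagagccac
H2afj: ctgctgcccaagAAGacggagagccag
H2afx: ctgctgcccaagAAGagcagcgccacc
H2afz: aaatcgctgatcGGGaagaaaggacaa
H2afv: cacaagtctctgATTggaaagaagggg
H2afy: aagaagcgaggaTCCaagggaaaattg

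Values are the deposited FPKM (fragments per kilobase of transcript, scaled to the mapped fragments of the library), in which no value is below a floor of 1. The study dropped genes that were under 1 FPKM in every sample and raised other values under 1 to 1. A gene above the floor in only 1 group is therefore in the table through that group. The read depth of the libraries is unknown. The FPKM of all genes summed to between 547752 and 593317 in 7 libraries and to 770989 in cKO 2-cell replicate 2. The 2 cKO 2-cell libraries differed by more than 3-fold in 13.3% of all genes and in 7 of the 48 histone genes, against 0.139% to 1.38% of all genes in the other groups. The 10 oocyte markers were above the floor in every library, and 5 listed 2-cell markers summed to between 6.45 and 9.99 FPKM in zygotes, 459 and 680 in WT 2-cell embryos, and 166 and 178 in cKO 2-cell embryos. Of the marker lists for other cells, 3 of 8 cumulus genes were in the table. They summed to between 24.3 and 28.7 FPKM in zygotes, mostly Cyp19a1, and between 3 and 10.3 FPKM in 2-cell embryos. Tnfaip6 and Foxl2 were at the floor in zygotes and reached 7.45 and 1.55 FPKM in WT 2-cell embryos. The 4 listed sperm genes summed to between 16.5 and 23.1 FPKM in zygotes, mostly Prm2, and between 4 and 11.4 FPKM in 2-cell embryos. The 2 listed blood genes were at the floor in zygotes and summed to 12.3 and 9.83 FPKM in WT and to 3.97 and 4.49 FPKM in cKO 2-cell embryos. Their part in the results was not tested, and in these pooled samples fewer cells and less RNA per cell cannot be told apart.

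Usp16 itself was at 184 and 187 FPKM in WT zygotes and at 16.8 and 22.0 FPKM in cKO zygotes. The zygote groups were far apart, with a difference of -3.21 on the log2(FPKM + 1) scale that missed the threshold after correction over all genes (limma, Benjamini-Hochberg adjusted p = 0.191). In 2-cell embryos it was at 168 and 183 FPKM in WT and at 168 and 84.8 FPKM in cKO (difference -0.55, limma adjusted p = 0.263). Because the paternal allele is intact, Usp16 does not check the labels of the 2-cell libraries.

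Variants held most of the histone FPKM captured from oligo-dT primers in every library. Summed over the 11 variant genes, the level was 3464 and 4416 FPKM in WT zygotes, 4639 and 4385 FPKM in cKO zygotes, 3283 and 3505 FPKM in WT 2-cell embryos, and 5058 and 7267 FPKM in cKO 2-cell embryos. Summed over the 37 replication-dependent genes, it was 275 and 211 FPKM in WT zygotes, 405 and 270 FPKM in cKO zygotes, 136 and 146 FPKM in WT 2-cell embryos, and 110 and 112 FPKM in cKO 2-cell embryos. The variants therefore held between 92.0% and 98.5% of histone FPKM. A mean of at least 3 FPKM over the libraries was reached by 24 histone genes, which were 15 of 37 replication-dependent genes and 9 of 11 variants. Of the 48 genes, 18 stayed under 3 FPKM in every library and 31 were at the floor in at least 1 library.

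**Figure D1:**
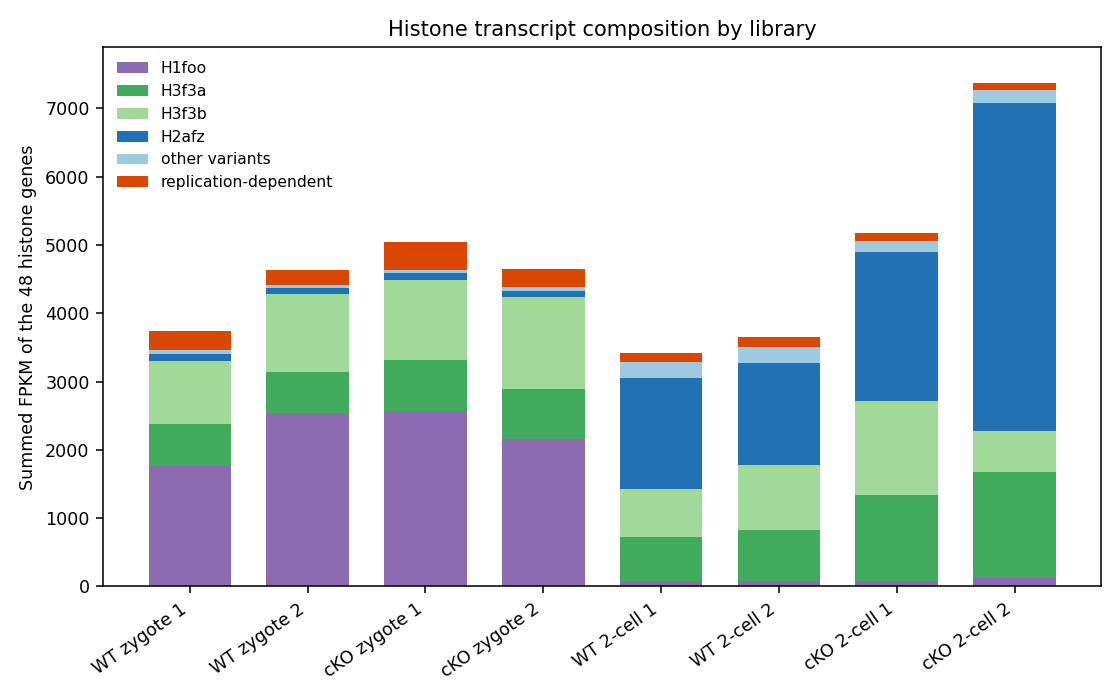
Summed FPKM of the 48 histone genes in each library (bars, split by gene or group). H1foo filled 46.4% to 55.0% of the bar in zygotes and 1.38% to 2.26% in 2-cell embryos, and H2afz filled 1.81% to 2.63% in zygotes and 40.9% to 65.0% in 2-cell embryos.

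Many histone genes share sequence, which limits how well reads can be assigned to one of them. Of all 50-base windows of each annotated transcript, a median of 40.2% over the replication-dependent genes occurred at another place in the genome, and the median was lower over the variants (4.40%). The share was over 50% in 10 replication-dependent genes and in 1 variant, H2afz, at 83.5%. It was 32.5% for H3f3a, 6.27% for H2afx and 8.54% for Hist1h1c, and no window of H1foo, H2afv, H2afy or Hist1h1a occurred elsewhere. How the authors treated reads with several places is not given in the sources used here, so the levels of H2afz, H3f3a and the clustered genes are uncertain in that respect. H1f0 (chr15:78859152-78859689) is recorded in this annotation as a pseudogene with no coding transcript, and was not scored.

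The first comparison asked how histone transcripts changed between the WT zygote and the WT 2-cell embryo. The oocyte linker histone fell and H2A variants rose. By limma on the log2(FPKM + 1) scale, 8 histone genes rose (16.7%, against 34.2% of all genes) and 9 fell (18.8%, against 15.5% of all genes). The 2-cell libraries lay wholly above the zygote libraries for 14 histone genes (49.4% of all genes did so) and wholly below for 13 (26.4% of all genes). By a 3-fold change of the group mean, 6 were higher (26% of all genes) and 6 were lower (8.78% of all genes). Without WT zygote replicate 1 or replicate 2, limma called 5 as lower in place of 9. On this scale a difference understates the change of genes with low values, and a permutation of 2 against 2 libraries cannot give an exact p below 0.333, so single genes were tested by limma with the spread shared over all libraries.

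H1foo, which replaces somatic H1 in the oocyte, stood at 1759 and 2544 FPKM in WT zygotes and at 74.5 and 82.7 FPKM in WT 2-cell embryos. The level was 27.4-fold lower after the first division, the largest fold among the 48 genes in this comparison (difference -4.74, SE 0.34, limma adjusted p = 0.000194). H1f0, the H1 form of slowly dividing and differentiated cells, was at 19.0 and 20.1 FPKM in WT zygotes and at 24.2 and 26.7 FPKM in WT 2-cell embryos, a small separation that did not pass the test (limma adjusted p = 0.413). Hist1h1a (H1.1), the most abundant clustered H1 gene, fell from 29.5 and 34.7 FPKM to 16.2 and 12.0 FPKM (difference -1.14, SE 0.27, limma adjusted p = 0.0138). Hist1h1c (H1.2) rose from the floor in both zygote libraries to 2.80 and 4.33 FPKM, at least 3.56-fold (limma adjusted p = 0.00147). It is in the table only through these 2-cell libraries, so the filter on low genes partly set this rise. Without WT zygote replicate 2 or WT 2-cell replicate 2 the call of Hist1h1a was lost (limma adjusted p = 0.0814 and 0.0758).

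Of the 6 H2A variants, 4 rose at the 2-cell stage and 1 fell. H2afz encodes H2A.Z.1, a variant placed at promoters and enhancers, and was at 98.2 and 83.9 FPKM in WT zygotes and at 1626 and 1492 FPKM in WT 2-cell embryos. This 17.1-fold rise carried a difference of 4.09 (SE 0.38, limma adjusted p = 0.000405). H2afv (H2A.Z.2) rose from 22.4 and 11.8 FPKM to 141 and 137 FPKM (difference 3.01, SE 0.31, limma adjusted p = 0.000578). No library of one stage reached into the range of the other for either H2A.Z gene.

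H2afj, an H2A variant close to canonical H2A, rose from 4.50 and 3.16 FPKM to 33.5 and 30.8 FPKM (difference 2.79, SE 0.27, limma adjusted p = 0.000439). H2afx, whose protein is phosphorylated at DNA breaks, rose from 8.11 and 4.45 FPKM to 24.8 and 38.6 FPKM (difference 2.18, SE 0.35, limma adjusted p = 0.00319). H2afy, encoding the large repressive variant macroH2A1, fell from 5.58 and 4.36 FPKM to 1.87 FPKM in one WT 2-cell library and the floor in the other (difference -1.31, SE 0.24, limma adjusted p = 0.00496). The sixth, H2afb1, was at the floor in all 4 zygote libraries and at 2.05 and 1.16 FPKM in WT 2-cell embryos, which did not pass the test (limma adjusted p = 0.0956).

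The H3.3 genes did not follow the H2A variants. H3f3a was at 616 and 590 FPKM in WT zygotes and at 644 and 737 FPKM in WT 2-cell embryos (difference 0.19, SE 0.22, limma adjusted p = 0.497). H3f3b was at 928 and 1153 FPKM in WT zygotes and at 709 and 956 FPKM in WT 2-cell embryos (difference -0.33, SE 0.42, limma adjusted p = 0.553). Both encode the same H3.3 protein, and together they held 37.7% and 41.3% of histone FPKM in WT zygotes and 39.6% and 46.4% in WT 2-cell embryos.

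**Figure D2:**
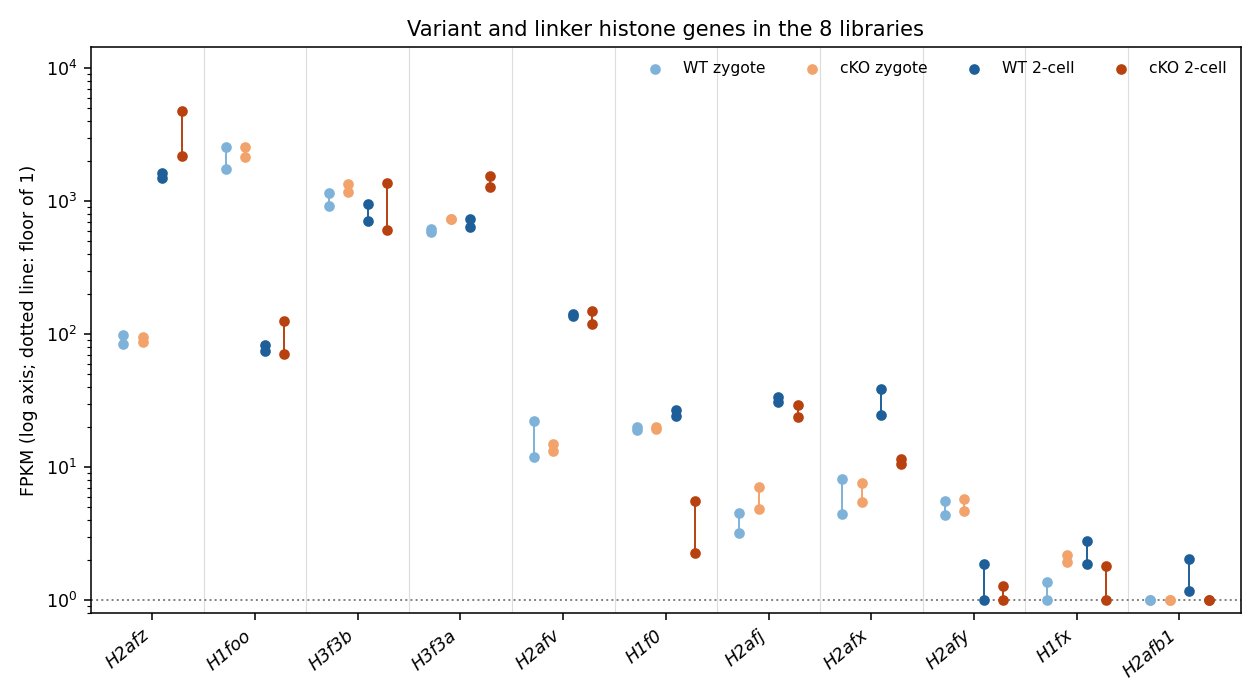
FPKM of the 11 variant genes (log axis), with 1 point per library and a line joining the 2 libraries of a group. H2afz lies between 83.9 and 98.2 FPKM in the zygotes and between 1492 and 4793 FPKM in the 2-cell libraries, H1foo falls in the opposite direction, and H1f0 is lowest in the cKO 2-cell libraries, at 5.60 and 2.27 FPKM.

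Among replication-dependent genes, 7 of 37 fell and 4 rose at the WT 2-cell stage. Hist1h2aa encodes the testis-type H2A and was the most abundant of the 37 by mean FPKM. It fell from 70.8 and 36.4 FPKM in WT zygotes to 12.2 and 6.39 FPKM in WT 2-cell embryos (difference -2.39, SE 0.43, limma adjusted p = 0.00484). Sperm marker Prm2, at 13.5 to 20.1 FPKM in zygotes and at most 1.64 FPKM in 2-cell embryos, moved in the same direction. The other listed sperm genes did not. Tnp1 was at the floor in zygotes and at 4.28 and 5.69 FPKM in WT 2-cell embryos. Prm1 was at the floor in zygotes and at the floor and 3.03 FPKM in WT 2-cell embryos, and Odf1 stayed at the floor in WT. The part of sperm RNA was not tested. The neighbour of Hist1h2aa, Hist1h2ba, which encodes the testis-type H2B on the opposite strand, fell from 33.7 and 28.5 FPKM to 4.06 and 9.90 FPKM (difference -2.11, SE 0.57, limma adjusted p = 0.0229). Its call was lost without WT zygote replicate 1, WT zygote replicate 2 or WT 2-cell replicate 1, with limma adjusted p of 0.112, 0.0866 and 0.159.

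The H2B gene Hist1h2bk was at 4.56 and 4.53 FPKM in WT zygotes and at the floor in both WT 2-cell libraries, at least 4.54-fold lower (limma adjusted p = 0.00329). Hist2h2bb fell from 4.47 and 4.30 FPKM to the floor and 2.31 FPKM (difference -1.06, SE 0.26, limma adjusted p = 0.0167), a call that was lost without WT zygote replicate 1 (adjusted p = 0.0780) or replicate 2 (adjusted p = 0.0711). Hist1h2bc and Hist1h4a also fell, with limma adjusted p of 0.0446 and 0.0477. These calls were close to the threshold. That of Hist1h2bc was lost without any single library other than the cKO 2-cell ones, and that of Hist1h4a without any other than WT zygote replicate 2, with limma adjusted p up to 0.181 and 0.224 over all settings.

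Hist1h4i, an H4 gene with both a stem-loop and a poly(A) signal, rose from 1.75 and 1.08 FPKM to 9.88 and 20.8 FPKM (difference 2.69, SE 0.47, limma adjusted p = 0.00436). It was the only one of the 15 replication-dependent genes with a mean of at least 3 FPKM to rise, while 7 of those 15 fell, against 36.9% rising and 19.9% falling over the 9370 genes with such a mean. Hist1h2bp and Hist2h2be, with no stem-loop match in the transcript searched, rose from the floor to means of 1.80 ± 0.42 and 1.67 ± 0.34 FPKM (SD, n = 2). Their calls were lost without either WT zygote library. Both genes are in the table only through 2-cell libraries, so the filter on low genes partly set these rises. The H4 genes Hist1h4c and Hist1h4d did not pass the test (limma adjusted p = 0.270 and 0.137). Hist1h4c went from 48.4 and 33.0 FPKM to 21.1 and 23.5 FPKM, and Hist1h4d from 12.0 and 8.33 FPKM to 5.28 and 5.37 FPKM.

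The classes were described by their medians, without a test. The median difference at the WT 2-cell stage was 0 over the 37 replication-dependent genes, 0.36 over the 11 variants, and 0.27 over all genes. Among genes with a mean of at least 3 FPKM it was -0.91 over 15 replication-dependent genes, 0.36 over 9 variants, and 0.44 over all genes. For the same expressed genes it was 2.49 over 6 H2A genes and -0.81 over 18 other histone genes. Of these 6 H2A genes 5 are variants and 1, Hist1h2aa, is replication-dependent, so this split largely repeats that of the classes. Over all 7 replication-dependent H2A genes the median was 0.04. The replication-dependent sum in WT 2-cell embryos was 0.581 times that in WT zygotes. The 5 most abundant genes held 70.7% and 66.7% of that sum in WT zygotes. Without them the sum overlapped between the stages, at 80.7 and 70.2 FPKM in WT zygotes and 77.2 and 89.2 FPKM in WT 2-cell embryos (ratio 1.10). This remainder holds Hist1h4i, which rose from 1.75 and 1.08 FPKM to 9.88 and 20.8 FPKM. It also holds Hist1h2bc, Hist1h2bk, Hist1h4a and Hist2h2bb, which fell. The ratio without Hist1h4i was not calculated. The H2A sum was 9.65 times that in WT zygotes.

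The H2A genes were then split by the codon counted as 119, without aligning the proteins. The 9 genes with a lysine codon there summed to 90.2 and 50.8 FPKM in WT zygotes, 109 and 76.5 FPKM in cKO zygotes, 78.4 and 83.7 FPKM in WT 2-cell embryos, and 53.1 and 50.2 FPKM in cKO 2-cell embryos. The 4 genes without it summed to 127 and 101 FPKM in WT zygotes, 115 and 107 FPKM in cKO zygotes, 1771 and 1630 FPKM in WT 2-cell embryos, and 2294 and 4946 FPKM in cKO 2-cell embryos. Thus most of the rise in summed H2A FPKM at the 2-cell stage lay in H2afz and H2afv. The sum of the 9 genes with a lysine codon at the counted position lay, in WT 2-cell libraries, within the range of the WT zygotes. Among these 9 genes, the 7 clustered genes went from 77.6 and 43.1 FPKM in WT zygotes to 20.2 and 14.3 FPKM in WT 2-cell embryos. H2afj and H2afx together went from 12.6 and 7.61 FPKM to 58.3 and 69.4 FPKM. H2afz, H2afv and H2afy hold lysine codons near the counted position, so this split does not separate genes by whether their protein can carry the mark. These are transcript levels, and protein was not measured.

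**Figure D3:**
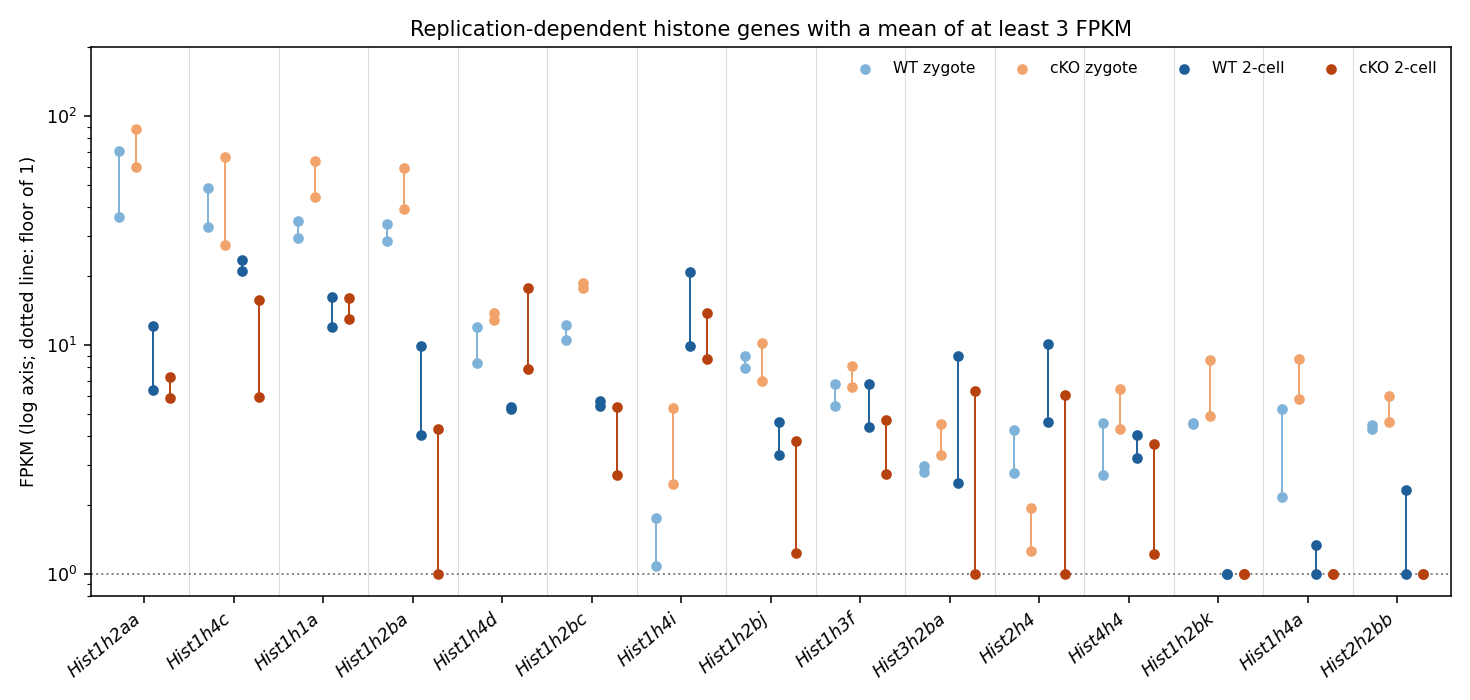
FPKM of the 15 replication-dependent genes with a mean of at least 3 FPKM (log axis), with 1 point per library and a line joining the 2 libraries of a group. Hist1h2aa, Hist1h1a and Hist1h2ba lie lower in all 4 2-cell libraries than in all 4 zygote libraries, and Hist1h4i lies higher.

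The second comparison asked whether loss of maternal Usp16 changed histone transcripts in zygotes. By limma no histone gene passed the threshold in either direction, against 0.0208% of all genes higher and 0% lower, and 3 histone genes had an unadjusted p under 0.05, all higher. By the 3-fold rule 0 histone genes were higher and 0 were lower (0.104% and 0.0486% of all genes). The cKO libraries lay wholly above the WT libraries for 18 of 48 histone genes (37.5%, against 15.8% of all genes) and wholly below for 2 (against 10.2% of all genes). The 18 genes were 14 of the 37 replication-dependent genes and 4 of the 11 variants, a similar share of each class.

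Of these, Hist1h1a was at 29.5 and 34.7 FPKM in WT zygotes and at 64.0 and 44.3 FPKM in cKO zygotes (difference 0.72, SE 0.27, limma adjusted p = 1). Hist1h2ba was at 33.7 and 28.5 FPKM in WT and at 59.4 and 39.4 FPKM in cKO zygotes (difference 0.63, SE 0.57, limma adjusted p = 1). The testis-type H2A gene Hist1h2aa overlapped between the genotypes, at 70.8 and 36.4 FPKM in WT and 87.7 and 59.8 FPKM in cKO zygotes. The higher value of each of these 3 genes in cKO zygotes came from replicate 1.

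The median difference was 0.12 over the 37 replication-dependent genes and 0.44 over the 15 expressed ones, of which 14 had a positive difference, against a median of 0.00 over all expressed genes. The replication-dependent sum, 275 and 211 FPKM in WT and 405 and 270 FPKM in cKO zygotes, overlapped between the genotypes, and their means stood in a ratio of 1.39. The variant sum gave a ratio of 1.15. H1foo was at 2574 and 2162 FPKM in cKO zygotes (difference 0.16, SE 0.34, limma adjusted p = 1), and H2afz at 95.5 and 86.9 FPKM (difference 0.01, SE 0.38, limma adjusted p = 1). H3f3a was at 738 and 729 FPKM in cKO zygotes, above both WT libraries, with a difference of 0.28 (SE 0.22, limma adjusted p = 1). H1f0, at 19.4 and 20.2 FPKM in cKO zygotes, overlapped the WT values.

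The third comparison asked the same of 2-cell embryos, the stage at which the mouse zygotic genome becomes widely active. Linker histone genes H1f0 and Hist1h1c and the H2A variant gene H2afx were lower in cKO embryos, and H3f3a was higher. By limma 5 of 48 histone genes were lower (10.4%, against 24.6% of all genes) and 1 was higher (2.08%, against 6.16% of all genes). By the 3-fold rule H1f0 and Hist1h1c were lower and none was higher (13.5% and 2.84% of all genes). The cKO libraries lay wholly below the WT libraries for 11 genes (22.9%, against 43.4% of all genes) and wholly above for 3 (6.25%, against 14% of all genes). Without cKO zygote replicate 1 or replicate 2, limma called 3 lower and 0 higher, without WT 2-cell replicate 1 it called 8 lower and 0 higher, and without cKO 2-cell replicate 1 or replicate 2 it called 5 and 3 higher. WT 2-cell libraries enter both this comparison and the one between stages, so the differences of a gene in them are not independent.

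H1f0 was at 24.2 and 26.7 FPKM in WT 2-cell embryos and at 5.60 and 2.27 FPKM in cKO 2-cell embryos. Both cKO libraries lay under all 6 other libraries, and the level was 6.46-fold lower than in WT (difference -2.51, SE 0.34, limma adjusted p = 0.00471). This call held in 14 of 15 other settings, and ended when the 4 2-cell libraries were fitted alone (limma adjusted p = 0.0876). The difference between genotypes was larger in 2-cell embryos than in zygotes (interaction -2.52, SE 0.48, limma adjusted p = 0.0290), although this call was lost without any one of the 4 zygote libraries or either WT 2-cell library (limma adjusted p between 0.0707 and 0.130).

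Hist1h1c, at 2.80 and 4.33 FPKM in WT 2-cell embryos, was at the floor in both cKO 2-cell libraries and in all 4 zygote libraries. Its level in cKO was at least 3.56-fold lower than in WT (limma adjusted p = 0.00443). The fit of the 4 2-cell libraries alone ended this call (limma adjusted p = 0.0839). Hist1h1c is in the table only through the WT 2-cell libraries, so the filter on low genes partly set this difference. The other H1 genes behaved differently. H1foo was at 71.3 and 126 FPKM in cKO 2-cell embryos, around the 74.5 and 82.7 FPKM of WT (difference 0.27, SE 0.34, limma adjusted p = 0.578). Hist1h1a was at 16.1 and 13.0 FPKM, within the WT range of 12.0 to 16.2 FPKM (difference 0.05, SE 0.27, limma adjusted p = 0.933). H1fx was at the floor and 1.80 FPKM in cKO and at 1.87 and 2.77 FPKM in WT (limma adjusted p = 0.142).

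H2afx was at 24.8 and 38.6 FPKM in WT 2-cell embryos and at 10.6 and 11.5 FPKM in cKO 2-cell embryos. The genotypes did not overlap, and the level in cKO was 2.87-fold lower (difference -1.41, SE 0.35, limma adjusted p = 0.0285), although both cKO 2-cell libraries were above all zygote libraries. The call depended on the setting. Without either cKO zygote library, either WT 2-cell library or either cKO 2-cell library the limma adjusted p lay between 0.0562 and 0.146, and with median-ratio scaling it was 0.124 with a difference of -0.96.

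The other H2A variants that rose at the WT 2-cell stage were not lower by the test in cKO. H2afj was at 29.3 and 23.7 FPKM in cKO 2-cell embryos, just under the WT values of 33.5 and 30.8 FPKM (difference -0.27, SE 0.27, limma adjusted p = 0.469). H2afv was at 118 and 150 FPKM, around the WT values of 141 and 137 FPKM (difference -0.06, SE 0.31, limma adjusted p = 0.929). H2afy was at the floor and 1.27 FPKM in cKO, and H2afb1 at the floor in both cKO libraries, with limma adjusted p of 0.627 and 0.124.

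H2afz was at 1626 and 1492 FPKM in WT and at 2174 and 4793 FPKM in cKO 2-cell embryos. Both cKO libraries were higher than WT, and they were far apart from each other. The difference of 1.05 (SE 0.38) did not pass the threshold (limma adjusted p = 0.0842), and it did only without cKO 2-cell replicate 1 (adjusted p = 0.00389). In cKO 2-cell replicate 2, the library with the high FPKM sum, H2afz alone held 65.0% of histone FPKM.

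H3f3a was at 644 and 737 FPKM in WT and at 1270 and 1546 FPKM in cKO 2-cell embryos, a 2.04-fold higher level (difference 1.02, SE 0.22, limma adjusted p = 0.0172). Both cKO libraries were above all 6 other libraries. The call was lost without cKO zygote replicate 1, cKO zygote replicate 2 or WT 2-cell replicate 1, with limma adjusted p of 0.0546, 0.0542 and 0.0618. H3f3b, which encodes the same protein, was at 709 and 956 FPKM in WT and at 1377 and 609 FPKM in cKO, where the groups overlapped (difference 0.15, SE 0.42, limma adjusted p = 0.826). Whether the H3.3 genes differed from each other in their response was not tested.

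**Figure D4:**
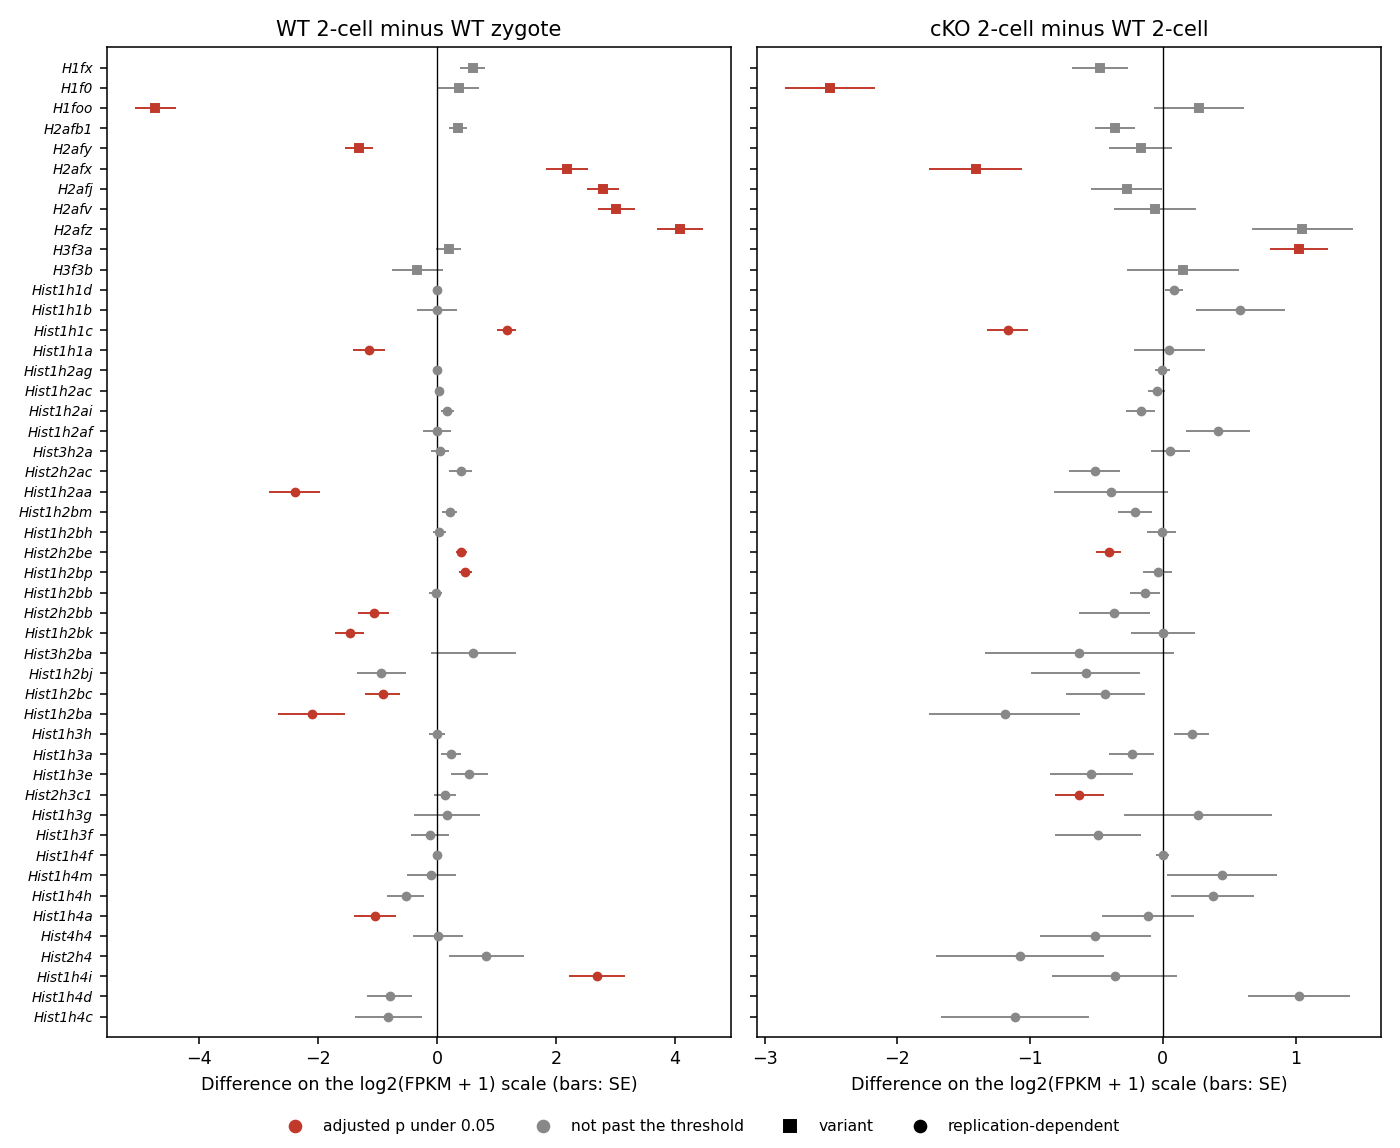
Differences on the log2(FPKM + 1) scale with their SE for the 48 histone genes, for WT 2-cell against WT zygote (left) and cKO 2-cell against WT 2-cell (right), with squares for variants, circles for replication-dependent genes and red for an adjusted p under 0.05. H1f0 stands at -2.51 on the right, and the differences of 4.09 for H2afz and -4.74 for H1foo mark the ends of the left plot.

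None of the 15 replication-dependent genes with a mean of at least 3 FPKM passed the test between the 2-cell genotypes (limma), against 8.35% higher and 26% lower over all 9370 genes with such a mean, and 1 of them had an unadjusted p under 0.05. That gene was Hist1h4d, at 5.28 and 5.37 FPKM in WT and at 17.7 and 7.87 FPKM in cKO, above WT in both libraries (difference 1.03, SE 0.39, limma adjusted p = 0.0935). Hist1h4c lay below, at 21.1 and 23.5 FPKM in WT and 5.91 and 15.7 FPKM in cKO (difference -1.11, SE 0.56, limma adjusted p = 0.187). These H4 genes encode the same protein. Hist1h2aa, at 5.86 and 7.28 FPKM in cKO, and Hist1h2ba, at the floor and 4.30 FPKM in cKO, did not pass either (limma adjusted p = 0.527 and 0.168). Hist1h4i was at 13.8 and 8.72 FPKM in cKO against 9.88 and 20.8 FPKM in WT (limma adjusted p = 0.596).

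The 3 replication-dependent genes that were lower in cKO 2-cell embryos were all low in WT. Beside Hist1h1c these were Hist2h3c1, an H3 gene at 1.58 and 2.71 FPKM in WT, and Hist2h2be, an H2B gene at 1.42 and 1.91 FPKM in WT, both at the floor in the cKO libraries (limma adjusted p = 0.0465 and 0.0199). Every window of the Hist2h3c1 transcript occurred elsewhere in the genome. Its call was lost without any library other than WT 2-cell replicate 1, and that of Hist2h2be without cKO 2-cell replicate 2. Both calls were also lost with median-ratio scaling, the 4 2-cell libraries fitted alone, array weights or a replicate block. The difference of Hist2h2be lay between -0.72 and -0.09 over the other settings. Like Hist1h1c, Hist2h2be is in the table only through the WT 2-cell libraries. In all, 23 and 19 of the 48 histone genes were at the floor in the cKO 2-cell libraries, against 15 and 13 in WT. Over all 14392 genes, 3684 and 4240 were at the floor in the cKO 2-cell libraries, against 1642 and 1716 in WT.

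The median difference was -0.17 over the 37 replication-dependent genes, -0.17 over the 11 variants and -0.30 over all genes. It was -0.17 over the 13 H2A genes, of which H2afx was called, and -0.21 over the 35 others, of which 4 were lower and 1 was higher. Among genes with a mean of at least 3 FPKM it was -0.43 over 15 replication-dependent genes, -0.06 over 9 variants and -0.46 over all genes. The replication-dependent sum of cKO was 0.786 times that of WT, and the variant sum was 1.82 times that of WT. Scaling the libraries to a common median ratio moved the median of all genes from -0.30 to 0 and turned the direction of the replication-dependent sum (ratio 1.06) and of the variant median (0.19), so neither direction is independent of the scaling.

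By histone type, the clustered H2B genes summed to 29.7 and 34.4 FPKM in WT 2-cell embryos and to 13.8 and 27.5 FPKM in cKO. The clustered H4 genes summed to 54.5 and 61.8 FPKM in WT and to 50.4 and 42.5 FPKM in cKO. The clustered H2A genes summed to 20.2 and 14.3 FPKM in WT and to 13.2 and 14.9 FPKM in cKO, and the clustered H3 genes to 10.7 and 17.6 FPKM in WT and to 11.3 and 10.4 FPKM in cKO. The clustered H1 genes summed to 21.0 and 18.4 FPKM in WT and to 21.6 and 16.3 FPKM in cKO. The cKO values lay under both WT values for H2B and H4, on both sides of them for H1, and overlapped WT for H2A and H3.

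The machinery that forms and handles the 3′ end of replication-dependent histone mRNA was read from a list of 14 genes, all in the table. Slbp, whose protein binds the stem-loop, was at 2210 and 2555 FPKM in WT zygotes and at 200 and 244 FPKM in WT 2-cell embryos (difference -3.42, SE 0.22, limma adjusted p = 0.000148). It did not separate the genotypes, at 2480 and 2529 FPKM in cKO zygotes and at 205 and 230 FPKM in cKO 2-cell embryos (limma adjusted p = 1 and 0.974). Of the 14 genes, 2 rose and 3 fell between the WT stages (34.2% and 15.5% of all genes), and 0 passed between the zygote genotypes.

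Between the 2-cell genotypes, 1 of the 14 was higher in cKO and 3 were lower, with a median of -0.37 against -0.30 over all genes, of which 6.16% were higher and 24.6% lower. Eri1, an exonuclease that trims histone mRNA 3′ ends, was at 7.76 and 4.74 FPKM in WT and at 34.5 and 31.4 FPKM in cKO 2-cell embryos (difference 2.26, SE 0.26, limma adjusted p = 0.00300). It was also above WT in both cKO zygote libraries, at 24.6 and 26.1 FPKM against 10.6 and 13.0 FPKM, without passing the test (limma adjusted p = 0.989). The 3 lower genes were Mif4gd, an SLBP partner in histone mRNA translation (difference -1.34, limma adjusted p = 0.0192), Zfp473, a factor of histone pre-mRNA processing (difference -1.20, adjusted p = 0.00734), and Cpsf2, a subunit of the cleavage complex (difference -1.06, adjusted p = 0.0260). Zfp473 was low, at 3.55 and 4.09 FPKM in WT and at 1.18 FPKM and the floor in cKO 2-cell embryos, so the floor limits its difference. The calls of the processing genes were not followed over the other settings. Of 17 histone chaperone genes, 3 rose and 4 fell between the WT stages (34.2% and 15.5% of all genes), and 0 passed between the zygote genotypes. In cKO 2-cell embryos 1 was higher and 2 were lower (6.16% and 24.6% of all genes), with a median of -0.56 against -0.30 over all genes.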

How the data were processed

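RNA was measured in 8 libraries of pooled embryos. The authors aligned reads with TopHat2 2.1.1 and quantified genes with Cufflinks 2.2.1 per the labels, and deposited 1 table of FPKM with no value below 1. The gene annotation and the handling of reads with several places are not given in the sources used here. The ChIP samples of the series were not analysed here. Here log2(FPKM + 1) values of all 14392 genes were fitted with limma 3.58.1 (R 4.3.3, trend, 4 groups, 4 residual degrees of freedom), with Benjamini-Hochberg adjustment over all genes and a threshold of 0.05. The script was tested on simulated data. The 3-fold rule compared group means. Sequences were read from mm9 with GENCODE M1, and tables were made with Python 3.11.15. Members and gene lists were chosen with earlier results of these data known. The genes named with values were all variants, replication-dependent genes past the threshold (up to 5 per direction), the 5 most abundant, Usp16, Slbp and processing genes past the threshold between genotypes. Hist1h2bc and Hist1h4a were named beside them. Alternatives covered the pseudocount, filter, scaling, fold threshold, array weights, replicate block, the libraries fitted and each library left out.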

Additional observations from a re-analysis of the deposited data

Results flagged for a closer look

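By limma, the effect of genotype on H1f0 differed between the stages, in a call that held in 6 of 14 other settings. That call was lost without any one of the 4 zygote libraries, without either WT 2-cell library and with a replicate block. The interaction of genotype and stage was -2.52 on the log2(FPKM + 1) scale (SE 0.48, limma adjusted p = 0.0290), with H1f0 at 5.60 and 2.27 FPKM in cKO 2-cell embryos and between 19.0 and 26.7 FPKM in the other 6 libraries. The effect of genotype on Hist1h1c also differed between the stages, with an interaction of -1.17 (SE 0.22, limma adjusted p = 0.0276). Hist1h1c was above the floor in the WT 2-cell libraries only, at 2.80 and 4.33 FPKM, and its interaction call was lost without any one of the 4 zygote libraries (limma adjusted p between 0.105 and 0.128). Over all genes 1.58% had a higher and 10.2% a lower interaction past the threshold. Hist1h1c is in the table only through the WT 2-cell libraries, so the filter on low genes partly set its interaction.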

How the results depend on the processing

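Over gene counts, medians and sums, 162 values in other settings stayed near the reported one and 54 did not. For the 2-cell genotypes (1 higher, 5 lower by limma), median-ratio scaling gave 2 higher and 2 lower, the 4 libraries alone 0 and 0, array weights 0 and 2, and a mean filter of 3 FPKM 2 lower. Leaving out 1 library gave 0 to 5 higher and 3 to 8 lower. Between the WT stages the filter gave 5 higher, and leaving out 1 library gave 6 to 11 higher and 5 to 10 lower. The interaction (2 genes) gave 1 with the filter and 0 to 8 without 1 library, with 0 without any one zygote library and 8 without WT 2-cell replicate 1. By a 2-fold rule, 2 genes were higher and 1 lower in cKO zygotes, and 4 higher and 8 lower in cKO 2-cell embryos. The 3-fold rule in 2-cell embryos gave 2 higher and 1 lower with median-ratio scaling, and 1 lower in every library or with a pseudocount of 1. Without 1 library it gave 0 to 2 higher and 1 to 6 lower, and 0 to 3 higher in zygotes, with 5 and 6 lower without WT 2-cell replicate 1 and cKO 2-cell replicate 2. With the filter, medians were -0.43 (replication-dependent, 2-cell genotypes), -0.91 (replication-dependent, WT stages), 2.49 (H2A) and -0.81 (not H2A), and the variant median was 0.19 with median-ratio scaling. The ratio of replication-dependent sums was 1.06 with median-ratio and 0.689 with sum scaling, and 0.758 to 0.816 without 1 library. That of variant sums was 2.59 with median-ratio scaling and 1.49 to 2.14 without 1 library. Without 1 library, 2-cell medians lay between -0.19 and 0 (replication-dependent), -0.28 and -0.06 (variant), -0.33 and 0.01 (H2A) and -0.23 and 0 (not H2A). The cause was not tested.

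Replicate numbers are shared by label only. Same-numbered libraries deviated together with a correlation of 0.50 in zygotes, -0.24 in 2-cell embryos and 0.11 between the WT stages. With a replicate block, 0 genes were higher and 5 lower between the 2-cell genotypes, 8 rose and 8 fell between the WT stages, and the interaction had 0 genes. With the pairing of the 2-cell libraries crossed, chosen after seeing the data, 1 was higher, 5 were lower and 0 had an interaction. Depth is unknown, and the floor of 1 FPKM limits what can be seen of low genes.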
